A study of Homo sapiens with 6 samples.

Results

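The genes described here build, load and move the primary cilium, together with those of the polycystin and cystic-disease proteins that work on it. They are a named list of 37 genes, taken from the deposited gene table by gene name on the main chromosomes. The table holds 64253 genes in all. Intraflagellar transport (IFT) particles make up the largest group, with 11 subunits of the IFT-B complex and 6 of the IFT-A complex. The others are 4 motor proteins, 9 genes of the BBSome and its helpers, 3 transition zone genes, and 4 polycystin and cystic-disease genes.

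The primary cilium is a single non-motile antenna, which in bile duct cells projects into the lumen and senses flow, osmolality and bile acids. Kinesin-2 carries IFT-B trains towards the tip, dynein-2 returns them with IFT-A, the BBSome moves membrane proteins, and the transition zone gates the base. Polycystin-1, polycystin-2 and fibrocystin sit on this cilium, and mutations in their genes cause polycystic kidney and liver disease.

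RNA was sequenced from H69 cells, an immortalised human cholangiocyte (biliary epithelial) line made with the SV40 large T antigen and used at passages 30 to 32. The TGF-beta group is 3 libraries from cells exposed for 16 hours to 10 ng/ml of recombinant human TGF-beta, and the vehicle group is 3 libraries from cells given a vehicle of unstated composition. Both groups are the same single line in the same H69 medium, and the labels do not say whether the libraries of a group came from separate cultures. The p-values below therefore measure the spread between these libraries, which may be technical. The comparison addresses how TGF-beta alters gene expression in cholangiocytes, and cilia themselves were not measured in these data.

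Reads counted in genes ranged from 37205862 to 47314515 in TGF-beta libraries and from 39971568 to 54160521 in vehicle libraries. Levels are given as CPM, reads scaled to a common library size, after TMM scaling, a correction for library composition, in which 1 CPM stands for 35.7 to 56.2 reads. Vehicle replicate 1 stood apart from the other vehicle libraries, and results that rest on it are given without it as well. The line matched its label on KRT7, at 2966 ± 153 CPM in TGF-beta and 1538 ± 169 CPM in vehicle libraries (SD, n = 3 each), and on KRT19, but the biliary genes CFTR and SCTR were nearly absent. CFTR had 0 reads in all 6 libraries. Of 6 fibroblast markers 4 were tested, 2 higher and 1 lower with TGF-beta, and their summed RPKM (reads per kilobase of gene and per unit of library size, as deposited) ranged from 16.9 to 18.0 in TGF-beta and from 11.4 to 12.7 in vehicle libraries. PDGFRB and THY1 were higher, at 1.02 and 0.36 on the log2 scale, PDGFRA was lower, at -0.72, and DCN was not called. LUM and COL3A1 had 0 reads in every TGF-beta library and were not tested. The part of these 6 markers in the results was not tested.

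Changes in these genes were small, and 23 of the 36 tested did not pass the test. Of the 37 genes, 36 had enough reads to be tested, of which 2 were higher and 11 lower after TGF-beta. Calls were made at an adjusted p under 0.05 in the quasi-likelihood test of edgeR, with Benjamini-Hochberg adjustment over the 20992 genes tested. The higher genes were PKD1 and BBS10. The lower genes were IFT52, IFT74, IFT80, IFT172, IFT140, WDR19, WDR35, TTC21B, DYNC2H1, BBS5 and PKD2. The largest change of a tested member was 0.45 on the log2 scale, so 0 of 36 passed 2-fold, against 8.37% of all genes tested that were called and changed at least 2-fold. In bulk RNA, fewer cells of a type and less RNA per cell cannot be told apart.

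The lower calls made up 30.6% of the tested members, against 20.4% of all genes tested and 25.7% of 10595 protein-coding genes in the same range of mean CPM. That share is close to the protein-coding background. The higher calls made up 5.56% of the members, against 19.7% of all genes tested and 22.2% of those protein-coding genes. All 3 TGF-beta libraries lay below all 3 vehicle libraries for 16 members, against 26.9% of all genes, and above them for 5 members, against 25.4% of all genes. The median log2 fold change was -0.09 over the tested members, -0.01 over all genes tested and -0.02 over the protein-coding genes in the range. Scaling by library totals alone moved the median of all genes to -0.14 and that of the members to -0.21, and it called 1 member higher and 21 lower. Without TGF-beta replicate 3 there were 6 lower calls, without vehicle replicate 2 there were 7, and without vehicle replicate 1 there were 5 higher and 15 lower calls. The calls gained without vehicle replicate 1 were BICC1, BBS12 and IFT81 (higher) and IFT27, ARL6, BBS2 and NPHP4 (lower). Replicates were close together for these genes, with a median coefficient of variation of 4.56% in TGF-beta and 4.45% in vehicle libraries.

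**Figure D1:**
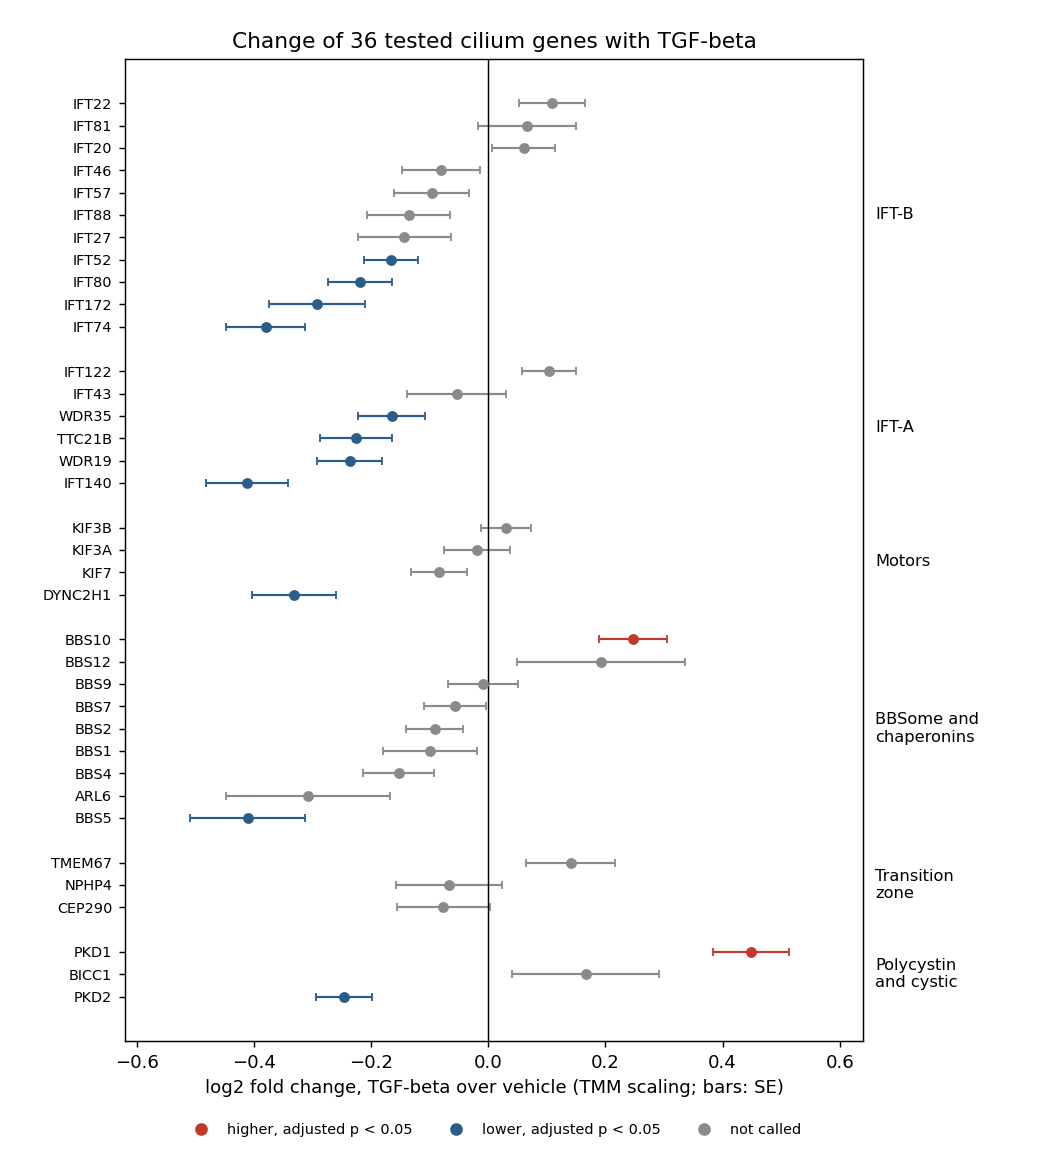
Log2 fold change (TGF-beta over vehicle, horizontal axis) of the 36 tested genes, one per row and grouped by role; bars are the standard error of the fit, and colours mark the genes called higher, called lower and not called. Most points lie left of 0, 26 of 36, and PKD1 lies farthest to the right at 0.45.

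**Figure D2:**
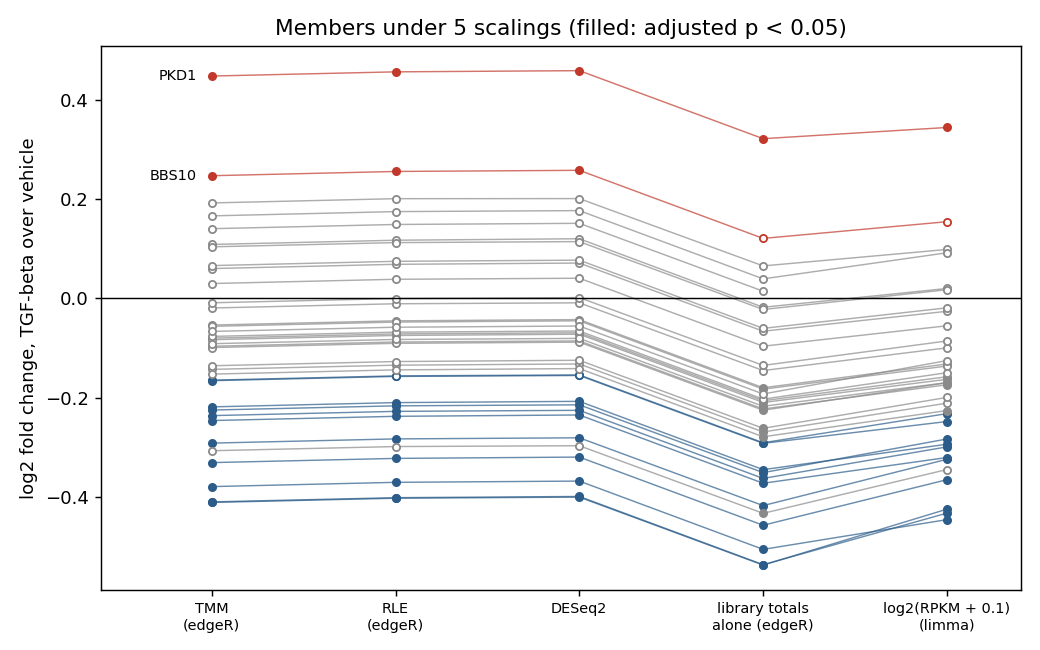
Log2 fold change (TGF-beta over vehicle, vertical axis) of each tested member under 5 scalings (horizontal axis); each line is a gene, coloured by its call with TMM, and points are filled at an adjusted p under 0.05. Lines dip under library totals alone, where the median is -0.21 instead of -0.09 and 1 member is called higher and 21 lower, PKD1 stays above 0 throughout, and TMEM67 has no limma value because its RPKM was too low.

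Many cilium genes carry an X-box, the paired motif bound by RFX transcription factors, and promoters are shown here because several RFX genes were also called. RefSeq promoters (GRCh38.p14, 250 bases before to 50 after the gene start) matched 32 of the 37 members by symbol. An X-box was found in 2 of the 32 (6.25%), against 1.31% of 35116 promoters. A member was counted once if any of its promoters matched, 35 promoters in all, whereas the share over all promoters counts each promoter singly. The next motif was counted in the same way. The shorter RFX-like motif GTTGCC, searched on both strands, was found in 11 of the 32 (34.4%), against 12.2% of all promoters, and the match in IFT122 lies inside its X-box. It was found in 1 of 2 higher genes, 3 of 10 lower genes and 7 of 19 genes not called. The 5 genes without a matched promoter were BICC1, WDR35, BBS9, TMEM67 and IFT22. The X-box promoters belong to IFT122 (chr3:129439974-129440273, plus strand) and IFT57 (chr3:108222375-108222674, minus strand), 2 genes that were not called. The called genes with a GTTGCC match are BBS10 (chr12:76348366-76348665, minus strand), which was higher, and IFT74 (chr9:26946860-26947159, plus strand), DYNC2H1 (chr11:103109176-103109475, plus strand) and BBS5 (chr2:169479244-169479543, plus strand), which were lower. Each is written 5′ to 3′ on the gene's strand, with the X-box in capitals in IFT122 and IFT57 and GTTGCC or its reverse complement in capitals in the others.
IFT122: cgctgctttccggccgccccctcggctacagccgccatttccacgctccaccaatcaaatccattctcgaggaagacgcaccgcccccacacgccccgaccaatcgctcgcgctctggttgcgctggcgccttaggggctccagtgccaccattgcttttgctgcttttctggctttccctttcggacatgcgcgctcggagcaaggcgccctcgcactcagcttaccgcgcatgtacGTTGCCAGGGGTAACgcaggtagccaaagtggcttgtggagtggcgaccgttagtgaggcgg
IFT57: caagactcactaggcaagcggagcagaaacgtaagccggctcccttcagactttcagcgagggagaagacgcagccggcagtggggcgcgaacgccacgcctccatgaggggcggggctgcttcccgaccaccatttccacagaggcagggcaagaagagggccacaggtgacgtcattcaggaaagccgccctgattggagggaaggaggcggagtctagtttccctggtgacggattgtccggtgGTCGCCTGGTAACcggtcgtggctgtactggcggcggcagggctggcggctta
BBS10: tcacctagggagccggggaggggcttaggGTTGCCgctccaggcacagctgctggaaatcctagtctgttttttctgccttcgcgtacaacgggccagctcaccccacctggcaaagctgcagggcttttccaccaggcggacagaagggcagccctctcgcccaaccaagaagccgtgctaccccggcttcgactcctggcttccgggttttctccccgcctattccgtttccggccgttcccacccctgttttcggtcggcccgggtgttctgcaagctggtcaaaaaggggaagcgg
IFT74: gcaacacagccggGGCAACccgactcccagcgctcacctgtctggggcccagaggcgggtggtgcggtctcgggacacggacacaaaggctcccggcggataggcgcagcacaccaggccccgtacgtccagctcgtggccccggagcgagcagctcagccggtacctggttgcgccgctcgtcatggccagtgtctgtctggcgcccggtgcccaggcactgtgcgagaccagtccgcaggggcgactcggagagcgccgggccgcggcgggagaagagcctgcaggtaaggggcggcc
DYNC2H1: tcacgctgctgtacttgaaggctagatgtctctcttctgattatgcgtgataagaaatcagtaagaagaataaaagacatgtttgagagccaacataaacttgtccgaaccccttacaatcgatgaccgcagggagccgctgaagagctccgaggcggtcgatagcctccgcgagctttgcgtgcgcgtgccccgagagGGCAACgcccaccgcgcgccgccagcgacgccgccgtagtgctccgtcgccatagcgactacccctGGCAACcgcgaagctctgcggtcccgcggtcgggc
BBS5: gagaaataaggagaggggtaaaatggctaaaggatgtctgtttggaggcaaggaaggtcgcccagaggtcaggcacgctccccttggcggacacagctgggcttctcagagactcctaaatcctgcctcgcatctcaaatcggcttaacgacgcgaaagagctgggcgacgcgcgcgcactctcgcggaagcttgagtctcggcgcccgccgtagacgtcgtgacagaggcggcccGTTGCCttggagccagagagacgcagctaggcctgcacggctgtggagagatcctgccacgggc
A match is a run of letters and not a measured binding site.

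The RFX factors themselves split. RFX3, which switches on ciliary genes in mouse, had 3.58, 3.82 and 4.03 CPM in TGF-beta libraries, against 6.01, 5.94 and 5.96 CPM in vehicle libraries. RFX2, its close relative, had 11.0, 10.9 and 11.5 CPM in TGF-beta libraries, against 7.08, 7.40 and 6.44 CPM in vehicle libraries. For both genes every TGF-beta library lay on the same side of every vehicle library. RFX3 fell by 0.65 (SE 0.09) on the log2 scale and RFX2 rose by 0.68 (SE 0.08), with adjusted p = 0.000295 and 8.00e-05 in the edgeR quasi-likelihood test (Benjamini-Hochberg). Of 6 RFX genes 5 were tested, with RFX2 and RFX7 higher and RFX3 and RFX5 lower. Over all genes tested 19.7% were higher and 20.4% lower, and these RFX genes were not tested as a set.

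IFT-B is the complex that rides kinesin-2 outward. Of its 11 tested subunits, 4 were lower, 0 were higher and 7 were not called, with a median log2 fold change of -0.14. Among all genes tested, 20.4% were lower and 19.7% higher, and among protein-coding genes in the members' range of mean CPM 25.7% and 22.2%. Lower calls came to 1 without TGF-beta replicate 3 and to 2 without vehicle replicate 2 or 3. IFT74 (chr9:26947039-27062930, hg38), which with IFT81 forms a tubulin-binding pair, had 19.3, 18.0 and 18.2 CPM in TGF-beta libraries, against 26.1, 23.1 and 23.0 CPM in vehicle libraries. The TGF-beta libraries all lay below the vehicle libraries, and IFT74 fell by 0.38 (SE 0.07) on the log2 scale, with an adjusted p of 0.00127 in the edgeR quasi-likelihood test (Benjamini-Hochberg). Its partner IFT81 did not pass, with a log2 fold change of 0.07, but without vehicle replicate 1 it was called higher, at 0.15 (edgeR adjusted p = 0.0456). The difference between these partners was not tested.

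IFT172, the largest IFT-B subunit, had 10.8, 11.9 and 10.6 CPM in TGF-beta libraries, against 12.4, 14.4 and 14.0 CPM in vehicle libraries. IFT80, a peripheral subunit mutated in skeletal ciliopathy, had 43.2, 42.5 and 40.0 CPM in TGF-beta libraries, against 50.6, 45.7 and 49.9 CPM in vehicle libraries. IFT52, a scaffold of the complex core, had 38.6, 36.8 and 37.1 CPM in TGF-beta libraries, against 41.2, 42.5 and 42.5 CPM in vehicle libraries. In each of these genes the TGF-beta libraries lay below the vehicle libraries without overlap. Log2 fold changes were -0.29 (SE 0.08) for IFT172, -0.22 (SE 0.06) for IFT80 and -0.17 (SE 0.05) for IFT52, with adjusted p = 0.0160, 0.00950 and 0.0155 in the edgeR quasi-likelihood test (Benjamini-Hochberg). IFT80 was no longer called without TGF-beta replicate 3 (adjusted p = 0.0507 in the edgeR quasi-likelihood test). IFT172 lost its call without TGF-beta replicate 1 or 3 or vehicle replicate 2 or 3, and IFT52 without TGF-beta replicate 2 or 3 or vehicle replicate 2 or 3, with edgeR adjusted p of at most 0.0841. DESeq2 did not call IFT52 either. An overlapping same-strand gene, RP11-432B6.3, shares 27.2% of the exon bases of IFT80, and SMC4 on the opposite strand shares 8.46%. RP11-432B6.3 held 80.0% and SMC4 860% as many reads as IFT80. SMC4 was itself called lower, at -0.17 on the log2 scale (adjusted p = 0.0304, edgeR quasi-likelihood test, Benjamini-Hochberg). RP11-432B6.3 was not called, at -0.12. The sources used here do not give the strand setting of the counting, so reads of such neighbours cannot be told apart. Exon overlaps of this kind were found for 15 of the 37 members. In BBS1, which was not called, same-strand CTD-3074O7.11 shares 53.9% of exon bases. Among other called genes, opposite-strand neighbours share 6.68% of IFT74 (PLAA), 6.95% of TTC21B (TTC21B-AS1), 0.655% of IFT172 and 0.380% of IFT140. PLAA was not called, at -0.02, and TELO2, the neighbour of IFT140, was called higher, at 0.23 on the log2 scale.

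IFT88, the core subunit whose loss removes cilia in mouse, was not called. It had 11.5, 11.8 and 10.6 CPM in TGF-beta libraries, against 12.6, 12.7 and 11.9 CPM in vehicle libraries. The TGF-beta libraries all lay below the vehicle libraries, with a log2 fold change of -0.14 (SE 0.07) and an adjusted p of 0.159 in the edgeR quasi-likelihood test (Benjamini-Hochberg). The other uncalled IFT-B genes had log2 fold changes of 0.06 for IFT20, 0.11 for the GTPase-like IFT22, -0.14 for the small GTPase IFT27 (-0.20 and called lower without vehicle replicate 1, edgeR adjusted p = 0.00788), -0.08 for IFT46 and -0.10 for IFT57. Scaling by library totals alone turned IFT20, IFT22 and IFT81 negative, at -0.066, -0.018 and -0.060.

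IFT-A, which returns trains with dynein-2 and brings receptors into the cilium, held 4 lower and 0 higher genes among its 6 subunits, with a median log2 fold change of -0.19. Lower calls came to 2 without TGF-beta replicate 2, without TGF-beta replicate 3 or without vehicle replicate 2. IFT140 (chr16:1510427-1612110, hg38), a core subunit mutated in cystic kidney disease, had 9.35, 10.1 and 9.83 CPM in TGF-beta libraries, against 12.3, 13.4 and 13.2 CPM in vehicle libraries. No TGF-beta library reached the lowest vehicle library, and IFT140 fell by 0.41 (SE 0.07) on the log2 scale, with an adjusted p of 0.000975 in the edgeR quasi-likelihood test (Benjamini-Hochberg).

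WDR19, the core subunit also called IFT144, had 24.9, 22.9 and 24.7 CPM in TGF-beta libraries, against 29.1, 27.9 and 28.4 CPM in vehicle libraries. TTC21B, or IFT139, had 17.1, 16.5 and 15.4 CPM in TGF-beta libraries, against 18.6, 19.3 and 19.2 CPM in vehicle libraries. WDR35, or IFT121, had 23.8, 23.2 and 22.7 CPM in TGF-beta libraries, against 24.8, 25.9 and 27.4 CPM in vehicle libraries. All 3 genes were lower in every TGF-beta library, though for WDR35 the groups came within about 1 CPM of each other. Their log2 fold changes were -0.24 (SE 0.05), -0.23 (SE 0.06) and -0.16 (SE 0.06), with adjusted p = 0.00615, 0.0145 and 0.0423 in the edgeR quasi-likelihood test (Benjamini-Hochberg). The WDR35 call was lost without any 1 library other than vehicle replicate 1, with edgeR adjusted p of up to 0.165. It was also lost with RLE size factors (another scaling), with no filter on low counts, with a replicate block and in DESeq2. TTC21B was not called without TGF-beta replicate 2 or 3 or vehicle replicate 2, with edgeR adjusted p of up to 0.0666. IFT43, a small peripheral subunit, and IFT122, a core subunit, did not pass, with log2 fold changes of -0.05 and 0.10. Under library totals alone IFT122 came to -0.022.

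Among the motors, only the retrograde heavy chain was called, whereas with library totals alone KIF7 was called as well. The 4 motors thus held 1 lower and 0 higher calls, against 20.4% lower and 19.7% higher among all genes tested. DYNC2H1, the dynein-2 heavy chain that pulls trains back to the cell body, had 20.5, 21.9 and 19.0 CPM in TGF-beta libraries, against 27.5, 26.0 and 23.9 CPM in vehicle libraries. The groups did not overlap, at means of 20.5 ± 1.42 CPM in TGF-beta and 25.8 ± 1.80 CPM in vehicle libraries (SD, n = 3 each), and DYNC2H1 fell by 0.33 (SE 0.07) on the log2 scale (adjusted p = 0.00428, edgeR quasi-likelihood test, Benjamini-Hochberg). KIF3A, a motor subunit of heterotrimeric kinesin-2, had 31.6, 29.3 and 29.2 CPM in TGF-beta libraries, against 29.7, 31.9 and 29.6 CPM in vehicle libraries. The KIF3A values overlapped, with a log2 fold change of -0.02 (SE 0.06) and an adjusted p of 0.817 in the edgeR quasi-likelihood test (Benjamini-Hochberg). Its partner KIF3B was at 0.03, or -0.10 under library totals alone, and KIF7, the tip kinesin of Hedgehog signalling, was at -0.08.

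**Figure D3:**
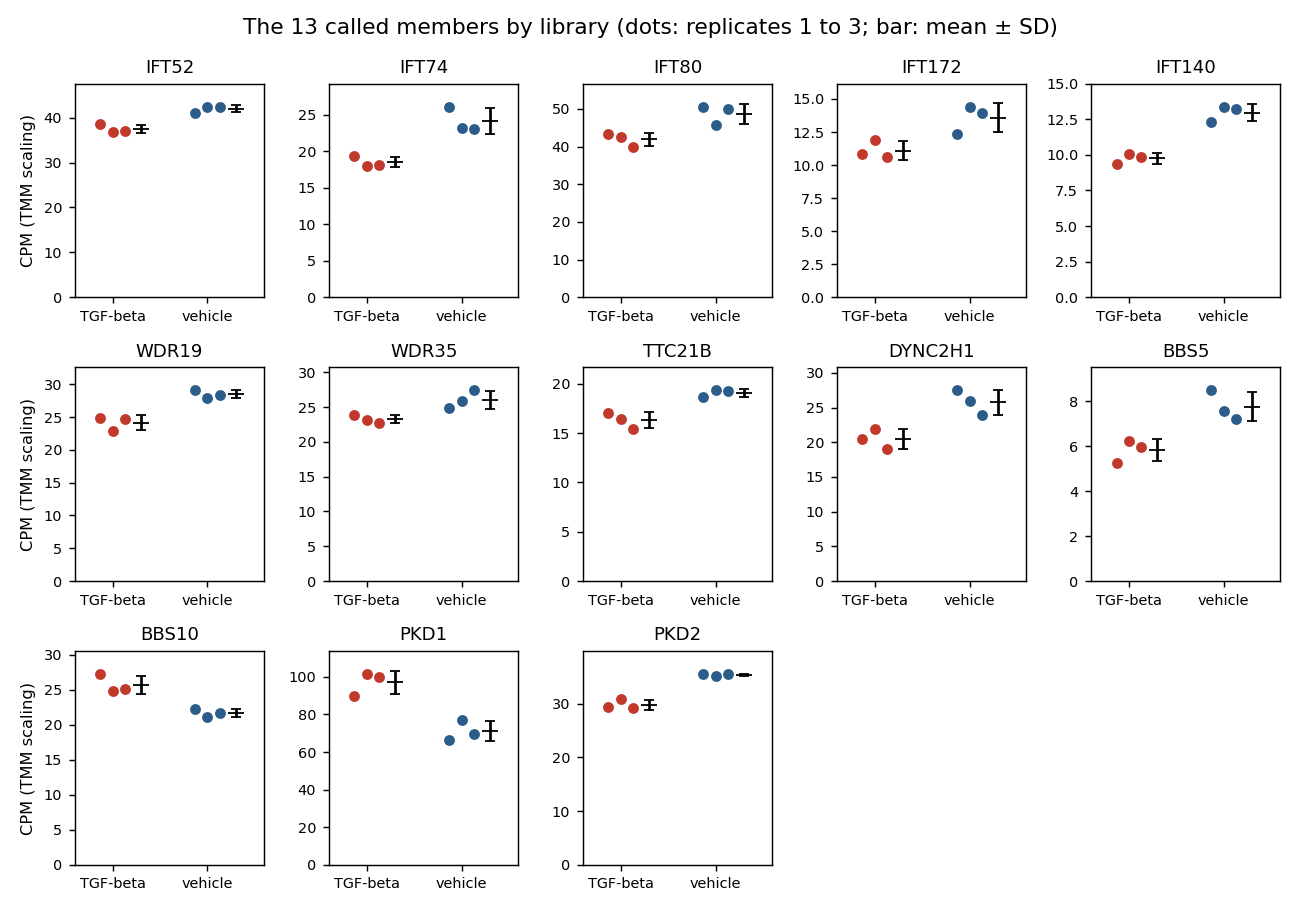
CPM (vertical axis, from 0) in each library of the 13 called genes, TGF-beta on the left and vehicle on the right of each panel; coloured points are libraries, and the black mark beside them is the mean with the SD of 3 libraries. The groups do not overlap in any panel, and PKD1 and BBS10 are the genes with TGF-beta above vehicle.

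The BBSome set held 1 higher and 1 lower call among its 9 genes, against 19.7% higher and 20.4% lower among all genes tested. BBS5, a lipid-binding BBSome subunit, had 5.26, 6.22 and 5.99 CPM in TGF-beta libraries, against 8.49, 7.58 and 7.23 CPM in vehicle libraries. BBS10, a chaperonin-like protein that helps assemble the BBSome, had 27.2, 24.8 and 25.1 CPM in TGF-beta libraries, against 22.2, 21.1 and 21.6 CPM in vehicle libraries. Neither gene overlapped between groups. BBS5 fell by 0.41 (SE 0.10) and BBS10 rose by 0.25 (SE 0.06) on the log2 scale, with adjusted p = 0.00715 and 0.00648 in the edgeR quasi-likelihood test (Benjamini-Hochberg). With library totals alone BBS10 was at 0.12 and not called (edgeR adjusted p = 0.121). RP11-724O16.1, on the same strand, shares 21.9% of the exon bases of BBS5 and holds 44.1% as many reads.

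The remaining 7 genes of this set were not called. They are the BBSome subunits BBS1, BBS2, BBS4, BBS7 and BBS9, the chaperonin-like BBS12 and ARL6, the GTPase that recruits the BBSome to membranes. Log2 fold changes ran from -0.31 for ARL6 to 0.19 for BBS12. ARL6, BBS2 and BBS4 were lower in every TGF-beta library without passing the test. Without vehicle replicate 1, ARL6 and BBS2 were called lower, at -0.36 and -0.12, and BBS12 was called higher, at 0.38. Of the transition zone genes, 0 of 3 were called, against 20.4% lower and 19.7% higher among all genes tested. CEP290, which links microtubules to the ciliary membrane at the gate, had 34.0, 31.0 and 29.8 CPM in TGF-beta libraries, against 37.4, 32.0 and 30.7 CPM in vehicle libraries. The CEP290 groups overlapped, with a log2 fold change of -0.08 (SE 0.08), and TMEM67 was at 0.14. NPHP4 was at -0.07, and without vehicle replicate 1, the lowest of all 6 libraries for this gene, it was called lower at -0.16 (edgeR adjusted p = 0.0314).

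The polycystin genes moved in opposite directions. PKD1 (chr16:2088710-2135898, hg38), which encodes the large receptor-like polycystin-1, had 89.9, 101 and 99.7 CPM in TGF-beta libraries, against 66.5, 77.1 and 69.6 CPM in vehicle libraries. PKD2 (chr4:88007668-88077777, hg38), which encodes the cation channel polycystin-2, had 29.4, 30.8 and 29.1 CPM in TGF-beta libraries, against 35.5, 35.1 and 35.5 CPM in vehicle libraries. Every TGF-beta library was above every vehicle library for PKD1 and below every vehicle library for PKD2. PKD1 rose by 0.45 (SE 0.07) and PKD2 fell by 0.25 (SE 0.05) on the log2 scale, with adjusted p = 0.000358 and 0.00224 in the edgeR quasi-likelihood test (Benjamini-Hochberg).

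The ratio of PKD1 to PKD2 does not depend on library scaling. Computed from the deposited RPKM, it was 0.906, 0.976 and 1.02 in TGF-beta libraries, against 0.556, 0.651 and 0.582 in vehicle libraries. The ratios of the 2 groups did not overlap, at 0.966 ± 0.0558 in TGF-beta and 0.596 ± 0.0489 in vehicle libraries (SD, n = 3 each). The exact two-sided permutation test gave p = 0.1, the smallest that 3 against 3 libraries allow, and this ratio was chosen after the values were seen.

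PKD1 shares much of its sequence with pseudogenes, and the handling of multi-mapped reads is not given in sources used here. The 4 table rows named as PKD1 pseudogenes summed to 64.1, 77.5 and 72.9 CPM in TGF-beta libraries, against 48.2, 54.9 and 52.8 CPM in vehicle libraries. PKD1 and these rows together came to 169 ± 13.0 CPM in TGF-beta and 123 ± 8.65 CPM in vehicle libraries (SD, n = 3 each), a log2 ratio of 0.45. The sum was thus higher in every TGF-beta library. Both rows named PKD1P6 were called higher, at 0.55 and 0.57 on the log2 scale, as was PKD1P1 at 0.28. PKD1P5 was not called, at 0.32. A sum cannot show whether reads came from PKD1 or from a pseudogene, and their origin was not tested. TSC2, on the opposite strand, shares 4.20% of PKD1's exon bases and was called lower, at -0.35 on the log2 scale.

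PKHD1 (chr6:51615300-52087625, hg38), which encodes fibrocystin and is mutated in recessive polycystic kidney disease with hepatic fibrosis, was hardly detected. Its reads numbered 0, 4 and 3 in TGF-beta libraries, against 13, 11 and 8 in vehicle libraries. These 7 reads in TGF-beta and 32 in vehicle libraries fell below the filter on low counts, and the groups did not overlap. With no filter it was called lower by edgeR (quasi-likelihood test, Benjamini-Hochberg adjusted p = 0.0127) and was not called by DESeq2 (adjusted p = 0.104), and a fold fitted to so few reads depends on the prior count. BICC1, an RNA-binding protein whose loss causes kidney cysts in mouse, had 156, 148 and 145 CPM in TGF-beta libraries, against 161, 121 and 119 CPM in vehicle libraries. Vehicle replicate 1 lay above all TGF-beta libraries and the other vehicle libraries lay below them. The BICC1 log2 fold change was 0.17 (SE 0.13), with an adjusted p of 0.347 in the edgeR quasi-likelihood test (Benjamini-Hochberg). Without vehicle replicate 1 it was 0.32, with an edgeR adjusted p of 1.40e-07.

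Levels can be compared between genes only per length, for which the deposited RPKM was used without TMM scaling. Among the members, BICC1 was at 9.42 ± 0.389 RPKM in TGF-beta and 8.92 ± 1.61 RPKM in vehicle libraries, and KIF3B at 8.63 ± 0.172 RPKM in TGF-beta and 8.98 ± 0.291 RPKM in vehicle libraries (SD, n = 3 each). These 2 genes headed the order and did not differ from each other beyond their spread in vehicle libraries. Next came IFT52, at 6.09 RPKM in TGF-beta and 7.26 RPKM in vehicle libraries, and IFT20, at 3.48 RPKM in TGF-beta and 3.54 RPKM in vehicle libraries. PKD2 was at 2.24 ± 0.0759 RPKM in TGF-beta and 2.82 ± 0.0283 RPKM in vehicle libraries, while PKD1 was at 2.16 ± 0.136 RPKM in TGF-beta and 1.68 ± 0.122 RPKM in vehicle libraries (SD, n = 3 each). The 2 polycystin levels thus lay within their spread of each other in TGF-beta libraries and apart in vehicle libraries. For PKD1 the level also depends on the handling of multi-mapped reads, which is not given.

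At the low end of the tested members, IFT172 was at 0.546 RPKM in TGF-beta and 0.709 RPKM in vehicle libraries, and IFT140 at 0.493 RPKM in TGF-beta and 0.697 RPKM in vehicle libraries. TMEM67, which encodes meckelin, was lowest in both groups, at 0.470 RPKM in TGF-beta and 0.453 RPKM in vehicle libraries. Subunits of 1 complex thus differed widely in RPKM. The deposited RPKM uses a single length per gene, 8281 bases for TMEM67, and the transcript forms present were not separated. The order of genes therefore also depends on that length. Summed over subunits, IFT-B came to 23.9 ± 0.606 RPKM in TGF-beta and 27.4 ± 0.441 RPKM in vehicle libraries, and IFT-A to 6.91 ± 0.0786 RPKM in TGF-beta and 7.95 ± 0.233 RPKM in vehicle libraries (SD, n = 3 each). The BBSome set came to 12.7 ± 0.159 RPKM in TGF-beta and 13.7 ± 0.160 RPKM in vehicle libraries (SD, n = 3 each). These sums lean on the most abundant subunits and on the authors' scaling, under which more genes read lower than under TMM.

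**Figure D4:**
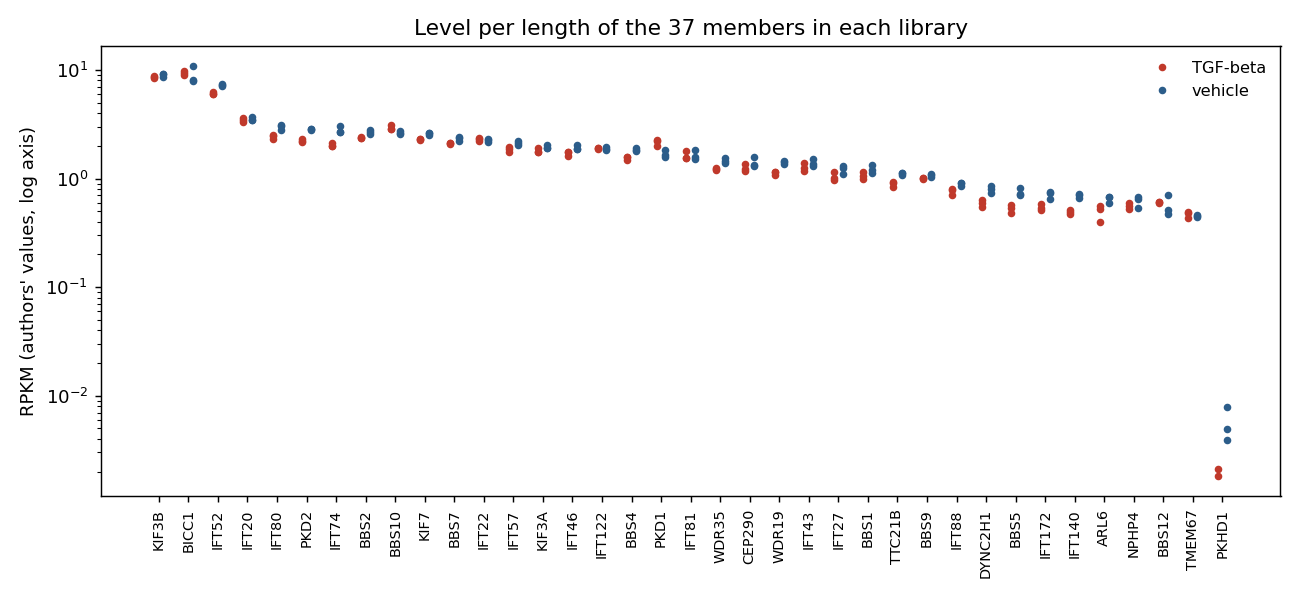
Deposited RPKM (vertical log axis) of each of the 37 members, ordered from left to right by the mean in vehicle libraries; each point is a library, coloured by group. Tested members run from BICC1 and KIF3B, near 9, to TMEM67, at 0.470 RPKM in TGF-beta and 0.453 RPKM in vehicle libraries, PKHD1 lies far below, and its TGF-beta library with 0 reads is not drawn.

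Other genes of the pathway were taken from 7 lists chosen for their roles, of which 103 of 120 genes were tested. Across them 12 genes were higher and 38 lower, 11.7% and 36.9% of those tested, with a median log2 fold change of -0.12, against 19.7% higher and 20.4% lower among all genes tested. Of the 10595 protein-coding genes in the members' range of mean CPM, which some list genes lie outside, 22.2% were higher and 25.7% lower. These shares are the background for the counts of each list below, and no list was tested against them. Among 22 other transport genes, 2 were higher and 8 lower. KIF3C, a kinesin-2 subunit known mainly from neurons, had 107, 106 and 113 CPM in TGF-beta libraries, against 36.0, 47.8 and 48.4 CPM in vehicle libraries. CLUAP1, the IFT-B subunit IFT38, had 9.74, 9.18 and 9.37 CPM in TGF-beta libraries, against 15.0, 15.8 and 16.1 CPM in vehicle libraries. Neither gene overlapped between groups, with KIF3C higher by 1.30 (SE 0.11) and CLUAP1 lower, at -0.73 (SE 0.07), on the log2 scale (adjusted p = 0.000147 and 1.11e-05, edgeR quasi-likelihood test, Benjamini-Hochberg).

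The ratio of KIF3C to KIF3A in RPKM was 3.63, 3.87 and 4.16 in TGF-beta libraries, against 1.30, 1.61 and 1.75 in vehicle libraries. KIFAP3, the subunit that completes the heterotrimer, was lower, at -0.43 on the log2 scale, as was DYNC2LI1, a dynein-2 light intermediate chain, at -0.48.

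At the transition zone and basal body, 13 of 32 other genes were lower and 0 higher, with a median log2 fold change of -0.15. Lower calls ran from 10 to 16 with each library left out. TMEM231, a membrane protein of the gate, had 5.57, 5.89 and 6.55 CPM in TGF-beta libraries, against 7.99, 8.58 and 9.06 CPM in vehicle libraries. It fell by 0.51 (SE 0.09) without overlap between groups (adjusted p = 0.00137, edgeR quasi-likelihood test, Benjamini-Hochberg). Its fellow gate genes CC2D2A and MKS1 were also lower, at -0.48 and -0.40 on the log2 scale.

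Genes of polycystic liver and kidney disease and their relatives were called in 5 of 16 tested cases, 4 higher and 1 lower. Without vehicle replicate 1 these counts were 6 higher and 5 lower. DZIP1L, a transition zone protein mutated in recessive polycystic kidney disease, had 27.1, 28.4 and 29.6 CPM in TGF-beta libraries, against 9.30, 10.3 and 9.35 CPM in vehicle libraries. PKD1L1, a polycystin-1 relative, had 100.4, 99.9 and 95.5 CPM in TGF-beta libraries, against 155, 218 and 197 CPM in vehicle libraries. The groups were far apart for both, with vehicle replicate 1 the nearest to TGF-beta for PKD1L1. DZIP1L rose by 1.56 (SE 0.07) and PKD1L1 fell by 0.95 (SE 0.12) on the log2 scale, with adjusted p = 4.42e-08 and 0.00162 in the edgeR quasi-likelihood test (Benjamini-Hochberg). In RPKM, PKD1L1 was at 4.27 in TGF-beta and 8.73 in vehicle libraries, above PKD1 in both. The PKD1 level depends on how reads shared with its pseudogenes were counted, which is not given.

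Of 16 cholangiocyte sensing genes 10 were tested, 2 higher and 3 lower. With any 1 TGF-beta library left out, 1 was higher. Without vehicle replicate 1, 3 were higher, and lower calls ran from 2 to 3 with each library left out. TRPV4, a calcium channel that senses osmolality on the cholangiocyte cilium, had 2.35, 2.60 and 2.61 CPM in TGF-beta libraries, against 0.787, 1.44 and 1.54 CPM in vehicle libraries. It was higher in every TGF-beta library, by 0.98 (SE 0.21), with an adjusted p of 0.00406 in the edgeR quasi-likelihood test (Benjamini-Hochberg). RAPGEF3, the cAMP-activated exchange factor EPAC1, was lower at -0.73 (SE 0.13). GPBAR1, the bile acid receptor TGR5, had only 1, 7 and 5 reads in TGF-beta libraries, against 3, 7 and 2 reads in vehicle libraries, and was not tested.

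**Figure D5:**
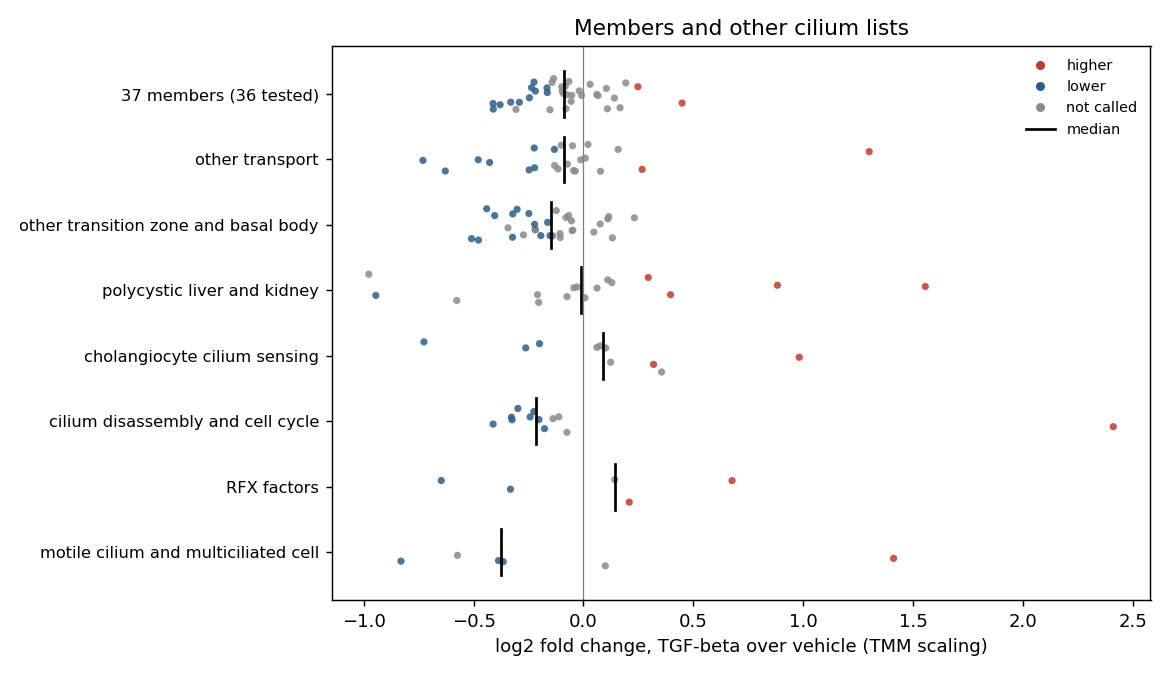
Log2 fold change (TGF-beta over vehicle, horizontal axis) of tested genes among the members (top row) and in each wider cilium list; points are genes, coloured as called higher, called lower or not called, and black lines are medians. Lower calls outnumber higher ones over the lists together, 38 to 12, and NEDD9, DZIP1L, CCDC40 and KIF3C lie farthest to the right.

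Of 12 genes of cilium disassembly and the cell cycle, 8 were lower, 1 was higher and 3 were not called, with a median log2 fold change of -0.21. NEDD9, a scaffold that activates Aurora A kinase during cilium resorption, had 273, 268 and 278 CPM in TGF-beta libraries, against 59.1, 46.7 and 48.3 CPM in vehicle libraries. It was the gene with the largest rise in these lists, at 2.41 (SE 0.09), with an adjusted p of 1.31e-07 in the edgeR quasi-likelihood test (Benjamini-Hochberg). Its partner AURKA was lower, at -0.33 on the log2 scale, as were NEK2 at -0.41, PLK1 at -0.32 and the proliferation markers MKI67 at -0.30 and TOP2A at -0.23. The part of these cell cycle genes in the lower transport genes was not tested.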

How the data were processed

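RNA sequencing of 6 H69 libraries was analysed from 1 deposited gene table, grouped by the treatment in the labels. Per the submitters' processing notes, bcl2fastq, STAR 2.6.1 and featureCounts of Subread were used with build hg38. The count columns, per the file headers, are whole-number reads per gene as deposited, without normalization. The RPKM columns were scaled by the authors to gene length and library size. Strand setting, multi-mapping and annotation release are not given in the sources used here.

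Counts were tested in R 4.3.3 with edgeR 4.0.16 (TMM, filterByExpr with a minimum count of 10, robust quasi-likelihood test, Benjamini-Hochberg adjustment). The common biological coefficient of variation was 7.88%. Steps were tested on simulated data. Alternatives used other scaling and filters, DESeq2 1.42.0, limma 3.58.1 on log2(RPKM + 1) and log2(RPKM + 0.1) at a mean RPKM of at least 0.5, a replicate block, and each library left out. Overlaps used GENCODE 29, in which 34 of 37 members have the table's start and end.

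Members and lists were chosen with earlier results of these data known. Values per library are given for called members and for PKD1, PKD2, PKHD1, BICC1, IFT88, KIF3A, DYNC2H1 and CEP290. From each wider list the called genes with the largest rise and fall, and GPBAR1, TRPV4, RFX3 and FOXJ1, were named and further examples were picked with their values in view. Some results are not reported here.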

Additional observations from a re-analysis of the deposited data

How the results depend on the processing

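Of the 13 called members, IFT74, IFT140, WDR19, DYNC2H1, BBS5, PKD1 and PKD2 kept their call and direction under all 15 alternatives. One of these, removing rows on alternate sequences, could not change a call, because those rows held 0 reads. Higher members numbered 2, and 1 with library totals alone, with log2(RPKM + 1) and with log2(RPKM + 0.1), and 2 to 5 with each library left out. Lower members numbered 11, against 21 with library totals alone, 9 with DESeq2 and 6 to 15 with each library left out. Higher genes in the whole table numbered 4145, against 2698 with library totals alone and 2406 and 2402 in the limma fits with a pseudocount of 1 and 0.1. Lower genes numbered 4278, against 7282 with library totals alone. In the wider lists, 12 higher genes became 6 in either limma fit and 38 lower genes became 60 with library totals alone. Library totals alone make no correction for library composition, and the causes of the other differences were not tested. Calls were 49.2% higher with TMM, 27.0% with library totals alone, and 34.8% and 34.7% in the limma fits.

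No called member changed direction. Among uncalled genes, with library totals alone, log2(RPKM + 1) and log2(RPKM + 0.1), IFT20 came to -0.066, -0.021 and -0.026, KIF3B to -0.096, -0.050 and -0.055, and IFT81 to -0.060, -0.013 and -0.019. Library totals alone also turned IFT22 to -0.018 and IFT122 to -0.022, and DESeq2 turned BBS9 to 0.0018. With each library left out, log2 fold changes ran from -0.0072 to 0.15 for IFT81, from -0.12 to 0.0076 for IFT43, from -0.056 to 0.018 for KIF3A, from -0.034 to 0.0071 for BBS9 and from -0.13 to 0.010 for CEP290.

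Replicate numbers did not pair the samples: deviations of same-numbered libraries correlated at 0.0652, 0.0623 and 0.0129. With the replicate block, 2 members were higher and 10 lower, WDR35 losing its call. The 3974 rows on alternate sequences held 0 reads, so removing them could not change any member. Depth limits PKHD1, GPBAR1 and FOXJ1, which had at most 13 reads in a library. With 3 libraries a group, an exact permutation test of a single value cannot go below 0.1.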

Other observations

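Genes of motile cilia, a kind distinct from the primary cilium, were mostly low. FOXJ1, the master factor of motile cilia, had 10, 1 and 1 reads in TGF-beta libraries, against 4, 6 and 8 reads in vehicle libraries, and was not tested. Of 13 genes 6 were tested, 1 higher and 3 lower, against 19.7% higher and 20.4% lower among all genes tested. Lower calls came to 0 without TGF-beta replicate 2 or 3 and to 1 without TGF-beta replicate 1 or vehicle replicate 2. CCDC40, which sets the spacing of structures along motile axonemes, had 16.3, 17.4 and 17.3 CPM in TGF-beta libraries, against 8.37, 5.34 and 5.59 CPM in vehicle libraries. It was higher in every TGF-beta library, by 1.41 (SE 0.16) on the log2 scale. MCIDAS, a regulator of multiciliated cells, had 0.476, 0.375 and 0.387 CPM in TGF-beta libraries, against 0.859, 0.641 and 0.714 CPM in vehicle libraries. Its log2 fold change was -0.83 (SE 0.23), with an edgeR adjusted p of 0.0160, and it was not called by DESeq2 (adjusted p = 0.105) or by edgeR without TGF-beta replicate 2 (adjusted p = 0.0694) or 3 (adjusted p = 0.0581).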
